A study of Homo sapiens with 3 samples.

Results

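The genes described here encode proteins that dock and fuse transport vesicles with their target membranes: the SNAREs of the VAMP, syntaxin and SNAP families, the syntaxin-binding proteins, the complexins, the SV2 vesicle proteins and the synaptotagmins. They were chosen by gene symbol alone, as all protein-coding rows named SYT, VAMP, STX, SNAP, STXBP, SV2 or CPLX with a number or letter, which gave 58 of the 58735 genes in the table and 58 of its 19951 protein-coding genes. Poly(A) RNA of RPE-1 cells was sequenced. RPE-1 is an established human line derived from the pigment epithelium of the retina and immortalised by expression of telomerase. In the line used, Cetn2 carries a GFP tag that marks centrioles, and PLK4 can be switched on with doxycycline through rtTA. The 3 libraries, all labelled siControl_no_induction, come from cells that received scramble siRNA with no induction of PLK4, so they form 1 group and allow no comparison between treatments. Whether the line is 1 clone, and whether the libraries are separate cultures, is not stated in the labels, so tests between the libraries measure only their spread, which may be technical.

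A SNARE complex forms when an R-SNARE on the vesicle, usually a VAMP, zips up with Q-SNAREs on the target membrane, a syntaxin together with a SNAP protein or with further syntaxin-like chains. Proteins of the Munc18 type, encoded by STXBP genes, hold syntaxins ready for assembly, while synaptotagmins and complexins couple the last step to calcium in neurons and gland cells. Every cell needs SNAREs for traffic between ER, Golgi, endosomes, lysosomes and the plasma membrane, whereas complexins, SV2 proteins and several synaptotagmins are best known from synapses.

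Library totals were 49279692, 60040029 and 46625774 counts. Library 1 stood apart, with 9.69% of its counts on mitochondrial genes against 5.67% and 6.30%, and with counts in 19953 genes against 24416 and 23050. Levels in a library are given as CPM (counts per 1000000 counts of the library, after TMM scaling). For a gene with 0 counts the limit of 3 counts corresponds to 0.0618 CPM in library 1, 0.0494 in library 2 and 0.0641 in library 3, counting error only. Levels of different genes are compared as RPKM, the CPM divided by the length in kb of all annotated exons of the gene together. The label of the cells was compared with 14 genes of pigment epithelium and of the line. Of these 8 were detected (57.1%), beside 57.7% of all protein-coding genes, so this share does not single out the cell type. The detected genes were KRT8, KRT18, OTX2, MITF, TERT, BEST1, PMEL and SERPINF1. RPE65 (8, 6 and 0 counts), RLBP1 (1, 7 and 3) and TYRP1 (8, 1 and 3) were below detection, and TYR, DCT and TTR had 0 counts.

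Nearly all SNARE genes were expressed, while most synaptotagmin, SV2 and complexin genes were below detection. A gene counted as detected with at least 1 CPM in every library, which 35 of the 58 genes reached (60.3%), close to the 57.7% of all protein-coding genes. The share differed by family. Of the 27 SNARE genes 25 were detected, of the 6 syntaxin-binding genes 5, of the 17 synaptotagmin genes 4, of the 3 SV2 genes 1 and of the 4 complexin genes 0. SNAP91, which the naming rule also caught, encodes a clathrin assembly adaptor rather than a SNARE and had 6, 0 and 0 counts. The median over the detected genes was 6.68 RPKM, beside 6.09 RPKM over all 11508 detected protein-coding genes, so the medians lay close together. Levels ran from 50.8 RPKM for VAMP3 down to 0.125 RPKM for SYT16. Just inside the limit of detection lay STX11 with 1.61, 1.51 and 1.80 CPM, and just outside lay SYT8 with 1.09, 1.12 and 0.748 CPM.

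**Figure D1:**
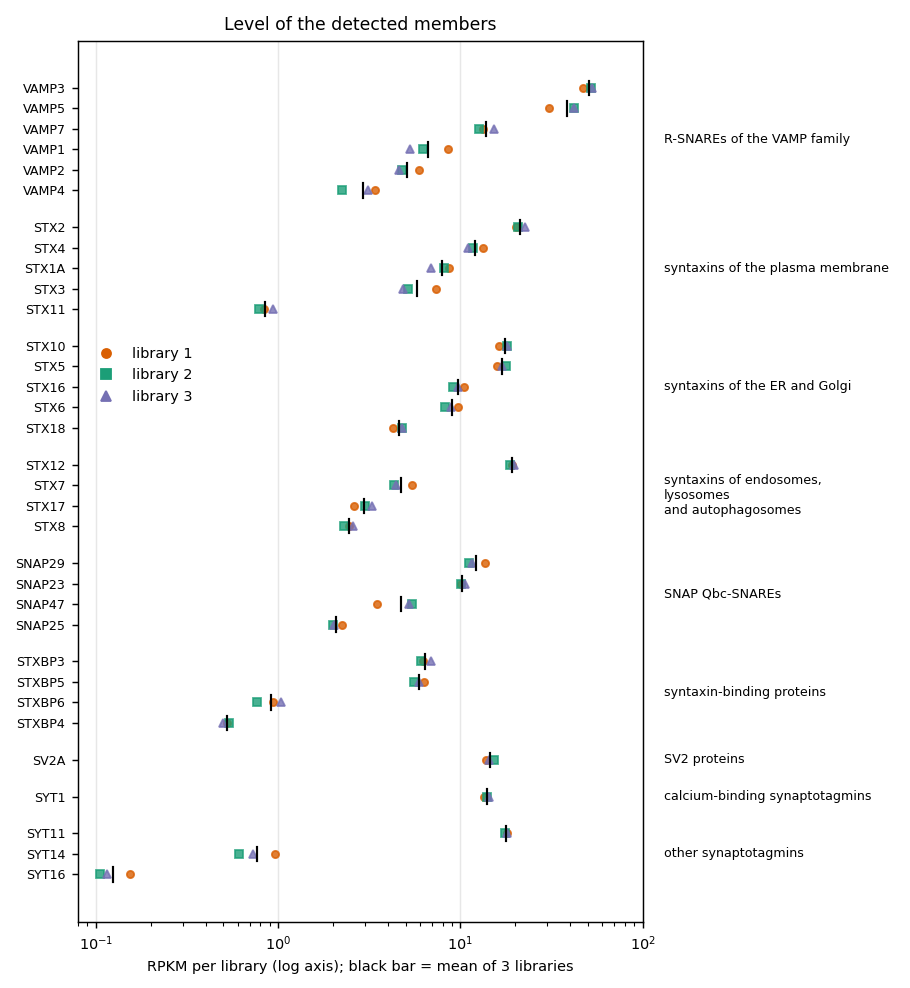
RPKM (log axis) of 33 of the detected genes in libraries 1, 2 and 3, grouped by role, with the mean of the 3 libraries as a black bar. VAMP3 and VAMP5 lie farthest to the right at 50.8 and 38.4 RPKM, and SYT16 farthest to the left at 0.125 RPKM.

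Among the R-SNAREs, VAMP3 and VAMP5 dominated. VAMP3 (ENSG00000049245, chromosome 1 from 7771269, plus strand), or cellubrevin, which serves recycling endosomes and constitutive secretion, stood at 47.3, 52.3 and 52.7 RPKM (mean 50.8 ± 3.03 SD, n = 3). This was the highest level of all 58 genes on each of the length scales tried, and VAMP3 supplied 43.1 ± 0.381% of the summed VAMP RPKM. VAMP5, known from muscle, followed with 30.8, 42.2 and 42.1 RPKM (mean 38.4 ± 6.56 SD), library 1 lying below the others. Its rank rests on its short exons, since by CPM alone it ranked 19 among the 35. VAMP7, a SNARE of lysosomes and late endosomes, stood at 13.4, 12.7 and 15.4 RPKM. The synaptobrevins of neurons, VAMP1 and VAMP2, were also present. VAMP1 had 8.54, 6.20 and 5.30 RPKM and VAMP2 5.94, 4.76 and 4.59 RPKM, both highest in library 1. AC129492.3 overlaps 13.2% of the exon length of VAMP2 on the same strand. VAMP4, of the trans-Golgi network, was the lowest detected VAMP at 3.38, 2.23 and 3.12 RPKM. VAMP8, or endobrevin, which serves late endosomes and regulated secretion in many epithelia, was below detection with 14, 12 and 12 counts. Within libraries VAMP3 exceeded VAMP2 10.01-fold (log2 ratio 3.32 ± 0.29 SD) and VAMP8 197-fold (7.63 ± 0.34 SD), each in 3 of 3 libraries.

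VAMP8 and VAMP5 lie side by side on chromosome 2, on the same strand, VAMP8 (ENSG00000118640) from 85561562 to 85582031 and VAMP5 (ENSG00000168899) from 85584408 to 85593412 (hg38, GENCODE release 29), 2376 bases apart. The neighbours differed widely in level, with 0.25 RPKM for VAMP8 and 38.4 RPKM for VAMP5. The stretches before their RefSeq start sites (build GRCh38.p14) are shown beside that of VAMP3 because they differ in CpG, the dinucleotide that is dense at the start sites of most widely expressed genes. Each runs 250 bases up to the start, 5′ to 3′ on the strand of the gene, with every CpG in capitals: VAMP3 at chr1:7771046-7771295, VAMP5 at chr2:85584181-85584430 and VAMP8 at chr2:85577336-85577585, all on the plus strand.
VAMP3: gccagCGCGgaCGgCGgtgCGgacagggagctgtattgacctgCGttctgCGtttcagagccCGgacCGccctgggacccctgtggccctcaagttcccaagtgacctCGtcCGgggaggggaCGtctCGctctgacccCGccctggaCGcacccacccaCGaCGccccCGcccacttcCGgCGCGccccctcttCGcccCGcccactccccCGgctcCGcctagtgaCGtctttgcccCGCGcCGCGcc
VAMP5: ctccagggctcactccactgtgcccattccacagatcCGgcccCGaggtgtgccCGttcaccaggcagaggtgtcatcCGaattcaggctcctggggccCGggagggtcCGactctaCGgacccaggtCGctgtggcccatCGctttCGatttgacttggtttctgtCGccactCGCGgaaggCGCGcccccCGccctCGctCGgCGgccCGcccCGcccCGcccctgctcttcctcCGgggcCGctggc
VAMP8: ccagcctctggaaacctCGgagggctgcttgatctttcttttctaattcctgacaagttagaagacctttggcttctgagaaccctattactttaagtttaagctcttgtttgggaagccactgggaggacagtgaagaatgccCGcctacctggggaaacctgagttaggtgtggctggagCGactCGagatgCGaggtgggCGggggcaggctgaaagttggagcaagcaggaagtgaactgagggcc
These stretches hold 30 CpG for VAMP3, 24 for VAMP5 and 6 for VAMP8. In GENCODE the VAMP8 gene begins 16024 bases before this RefSeq start, although an annotated transcript starts 7 bases away from it.

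Syntaxins of the plasma membrane were led by STX2 and STX4. STX2, also known as epimorphin, stood at 20.3, 20.7 and 22.5 RPKM (mean 21.2 ± 1.157 SD, n = 3). STX4, the broadly used syntaxin of constitutive and insulin-driven exocytosis, stood at 13.2, 11.8 and 11.1 RPKM. The apical syntaxin STX3 had 7.36, 5.17 and 4.87 RPKM, library 1 lying above the others. STX1A, the syntaxin of nerve terminals, reached 8.69, 8.17 and 6.90 RPKM, and BUD23 overlaps 17.9% of its exon length on the other strand. STX11, which serves killing granules of lymphocytes, was low at 0.834, 0.786 and 0.932 RPKM. STX19 had 0, 0 and 1 counts.

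All 9 syntaxins of inner membranes were detected. In the ER and Golgi group, STX10 of the trans-Golgi network stood at 16.3, 18.1 and 17.9 RPKM. STX5, the central syntaxin of ER to Golgi traffic, stood at 15.9, 17.9 and 16.9 RPKM and exceeded STX18, the syntaxin of return traffic to the ER, 3.68-fold. STX16 (mean 9.75 ± 0.680 SD) and STX6 (8.94 ± 0.738 SD), partners in endosome to Golgi traffic, had nearly equal levels. STX16 shares 28.4% of its exon length with the readthrough gene STX16-NPEPL1, and reads there may be divided or dropped. In the endosome and lysosome group STX12 of recycling endosomes led with 19.1, 18.6 and 19.6 RPKM. STX7 of late endosomes had 5.45, 4.32 and 4.42 RPKM, STX17 of autophagosomes 2.62, 3.01 and 3.26 RPKM, and STX8 2.45, 2.29 and 2.57 RPKM. STX7 carries 16387 bases of exon, so by CPM alone it was level with STX12 (log2 ratio 0.07 instead of -2.02).

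Of the SNAP proteins, which give a pair of helices to the complex, SNAP29 and SNAP23 were the highest. SNAP29, which acts on autophagosomes and other inner membranes, stood at 13.7, 11.1 and 11.5 RPKM, and SNAP23, the SNAP of most non-neuronal cells, at 10.1, 10.1 and 10.6 RPKM. Genes on the other strand, among them LRRC57, overlap 27.4% of the exon length of SNAP23. SNAP25, the neuronal member and a target of botulinum toxin, was low but detected with 365, 410 and 317 counts (2.24, 2.01 and 2.02 RPKM), and made up 7.17 ± 0.392% of the summed RPKM of the 4 genes. SNAP23 exceeded SNAP25 4.90-fold (log2 ratio 2.29 ± 0.11 SD, 3 of 3 libraries). SNAP47 had 3.47, 5.45 and 5.25 RPKM, lower in library 1, and shares 35.3% of its exon length with JMJD4 on the other strand.

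The syntaxin-binding genes STXBP3 and STXBP5 stood at similar levels per union of exons only. Per kb of the longest transcript STXBP3 had 14.9 CPM and STXBP5 6.81 CPM, and without length they had 37.7 and 62.5 CPM. STXBP3, or Munc18c, the partner of STX4, had 6.23, 6.06 and 6.89 RPKM. STXBP5, or tomosyn, which competes with VAMPs for syntaxin, had 6.33, 5.58 and 5.94 RPKM. STXBP6 (mean 0.915 ± 0.136 SD) and STXBP4 (0.522 ± 0.0197 SD) were low. STXBP2, or Munc18-2, the partner of STX3 and STX11 in epithelia and blood cells, had 0, 3 and 0 counts. AC008763.2 overlaps 16.4% of the exon length of STXBP2 on the same strand.

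Of the synaptotagmins, 2 were well expressed. SYT1 (ENSG00000067715), the fast calcium sensor of synapses, stood at 13.5, 14.02 and 14.4 RPKM (mean 13.9 ± 0.454 SD, n = 3), the only detected gene of the 8 synaptotagmins known to bind calcium. SYT11 (ENSG00000132718), which does not bind calcium and acts in endocytosis and lysosome traffic, stood at 18.01, 17.5 and 17.9 RPKM. The order of SYT11 and SYT1 turned with the length used, since per kb of the longest transcript SYT11 had 17.8 CPM and SYT1 18.8 CPM. Per union of exons SYT11 and SYT1 made up 53.9 ± 0.548% and 42.1 ± 1.24% of the summed RPKM of the 17 synaptotagmins. SYT14 (0.956, 0.612 and 0.729 RPKM) and SYT16 (0.154, 0.106 and 0.115 RPKM) completed the detected members. SYT7, a slow calcium sensor of lysosome exocytosis in many cells, had 47, 34 and 29 counts and lay 118-fold below SYT1 (log2 ratio 6.88 ± 0.46 SD). SYT2, the closest relative of SYT1, had 3, 2 and 1 counts, and PPP1R12B overlaps 27.2% of its exon length on the other strand. Over the pooled counts SYT1 exceeded SYT2 2820-fold per exon length, with an exact 95% interval of 1295 to 7686 that covers counting error only. SYT4, the closest relative of SYT11, had no count in any library, so that SYT11 was at least 1242-fold higher against a floor of 3 counts per library. SYT6, SYT9 and SYT15 had 0 counts too, while SYT3, SYT5, SYT10 and SYT17 had between 0 and 6 counts per library.

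The stretches before the start sites of both pairs are printed in the same way, because the expressed gene was the richer in CpG in the pair of SYT11 and SYT4 and the poorer in the pair of SYT1 and SYT2. They lie at chr12:78864524-78864773 (plus strand) for SYT1, chr1:202710455-202710704 (minus strand) for SYT2, chr1:155859317-155859566 (plus strand) for SYT11 and chr18:43277491-43277740 (minus strand) for SYT4.
SYT1: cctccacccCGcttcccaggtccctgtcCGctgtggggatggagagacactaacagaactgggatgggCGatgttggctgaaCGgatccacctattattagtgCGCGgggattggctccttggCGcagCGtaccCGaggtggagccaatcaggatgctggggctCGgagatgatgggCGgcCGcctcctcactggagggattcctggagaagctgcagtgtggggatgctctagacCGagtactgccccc
SYT2: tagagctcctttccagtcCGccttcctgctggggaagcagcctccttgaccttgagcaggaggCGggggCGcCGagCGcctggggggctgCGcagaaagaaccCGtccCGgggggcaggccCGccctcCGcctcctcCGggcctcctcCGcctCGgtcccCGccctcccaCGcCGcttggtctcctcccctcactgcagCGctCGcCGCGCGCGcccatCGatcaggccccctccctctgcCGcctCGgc
SYT11: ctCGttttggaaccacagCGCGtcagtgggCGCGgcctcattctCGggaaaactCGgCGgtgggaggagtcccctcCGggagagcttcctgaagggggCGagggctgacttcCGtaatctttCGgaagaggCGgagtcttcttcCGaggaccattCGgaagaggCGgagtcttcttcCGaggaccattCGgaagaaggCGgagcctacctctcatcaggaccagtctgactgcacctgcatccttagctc
SYT4: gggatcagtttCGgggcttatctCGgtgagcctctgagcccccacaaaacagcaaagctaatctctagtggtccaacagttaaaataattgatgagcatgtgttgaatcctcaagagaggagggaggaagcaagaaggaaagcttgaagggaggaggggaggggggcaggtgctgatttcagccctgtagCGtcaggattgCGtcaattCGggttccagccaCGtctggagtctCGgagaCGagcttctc
SYT2, with almost no reads, has 25 CpG in this stretch and SYT1 has 13. SYT11 has 19 and SYT4 has 8. For SYT2 the richer of its 2 RefSeq windows is shown.

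SV2A, a glycoprotein of secretory vesicles and the binding site of the drug levetiracetam, stood at 13.8, 15.3 and 14.3 RPKM. Its relatives SV2B and SV2C had no counts, and SV2A was at least 2777-fold above SV2B with the floor of 3 counts per library. No complexin, the small proteins that clamp and trigger SNARE complexes, was detected. CPLX1 came nearest with 45, 40 and 27 counts (0.927, 0.658 and 0.577 CPM), and CPLX2, CPLX3 and CPLX4 had none. Of the exon length of CPLX3 99.7% is shared with AC091230.1 on the same strand, so its value is uncertain.

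**Figure D2:**
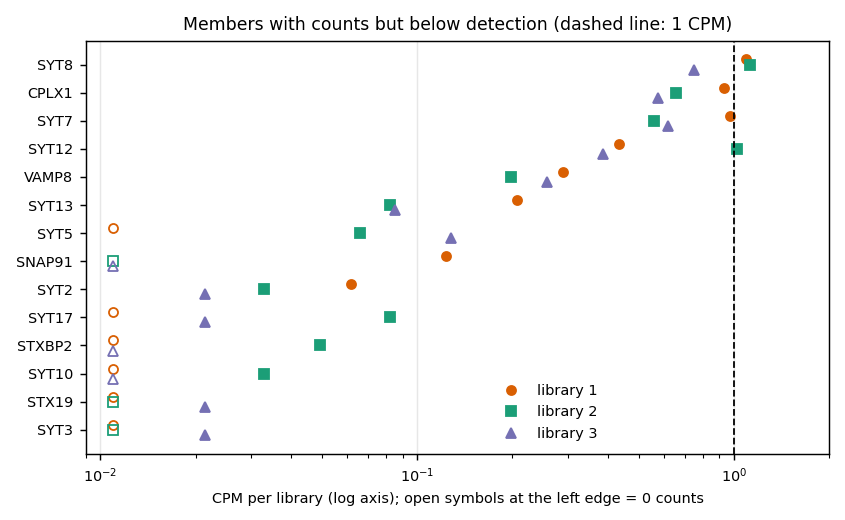
CPM (log axis) in libraries 1, 2 and 3 of the 14 genes that had counts but were below detection, with open symbols at the left edge for 0 counts and a dashed line at 1 CPM. SYT8, CPLX1, SYT7 and SYT12 lie next to the line, and the other 10 genes lie well to its left.

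Markers of neurons and neuroendocrine cells stood beside the neuronal SNARE genes at low levels. Of 25 such markers 7 were detected, beside 57.7% of protein-coding genes, and their summed level was 10.3, 9.65 and 9.09 RPKM in libraries 1, 2 and 3, less than that of SYT1 alone in each library. RAB3A, a vesicle GTPase, had the highest mean, with 2.73, 2.35 and 2.15 RPKM, although TUBB3, a neuronal tubulin, was higher in library 2 (1.81, 2.73 and 1.92 RPKM). MAP2 had the most counts of these markers in each library, with 1436, 1126 and 1043. The other detected markers were SCG2, GAP43, GAD1 and PCLO. SYP, which encodes the synaptic vesicle protein synaptophysin, was below detection with 24, 13 and 16 counts. ELAVL4, SLC17A6, STMN2, NEFM, CHGA, RBFOX3, SLC32A1 and SYN3 had 0 counts in every library.

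Genes that work with these proteins but carry other names were detected at a high rate, 50 of 59 beside the 57.7% of all protein-coding genes. This list holds 13 further SNAREs, all detected. Their highest was YKT6, an R-SNARE without a membrane span (39.7, 46.8 and 45.1 RPKM). NSF, the ATPase that takes SNARE complexes apart, and its adaptors were detected for 4 of 4 genes, the 10 genes of other Munc18-like proteins and the lysosomal HOPS tether for 10, and the 9 exocyst genes for 9. Priming and active zone genes were detected for 7 of 12 with a median of 0.378 RPKM and 0.237 ± 0.0470 RPKM for UNC13A, the lowest. Among other proteins with C2 domains, the calcium-binding fold of synaptotagmins, MYOF, a ferlin of membrane repair, was the highest of the whole list at 171, 158 and 160.3 RPKM. ESYT1, an extended synaptotagmin of ER contact sites, had 43.8, 56.6 and 57.0 RPKM. SYTL1, SYTL5, RIMS1, RIMS4, OTOF and ESYT3 were below detection, and CADPS, UNC13C and DOC2B had 0 counts. The chi-square test between libraries described below called 39 of the 53 genes of this list with enough counts, beside 68.6% of all genes tested.

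The order of levels was firm at a coarse scale only. When the 35 detected genes were sorted by RPKM, 17 of the 34 steps between neighbours kept their direction in every library and 17 did not. VAMP3 above VAMP5, VAMP5 above STX2 and STX2 above STX12 held in 3 of 3 libraries. SYT11 and STX10, SV2A, SYT1, VAMP7, SNAP29 and STX4, and VAMP1, STXBP3, STXBP5 and STX3 formed runs whose neighbours did not differ beyond their spread. For 23 pairs of related genes the ratio was taken within each library, and 22 had the same order in all 3. The exact two-sided sign-flip permutation test cannot go below p = 0.25 with 3 libraries, or 0.261 after adjustment over the pairs, so none could pass 0.05. Of these ratios 4 reversed when the longest annotated transcript replaced the union of exons. STX4 then stood above STX2 (log2 ratio 0.38), STX8 above STX7 (0.60) and VAMP2 above VAMP1 (0.18), while STX16 stood below STX6 (-0.24). SNAP29 over SNAP47 shrank from 1.38 to 0.14. The exon union of STX8 is 3.03 times and that of STX4 2.57 times the longest transcript.

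**Figure D3:**
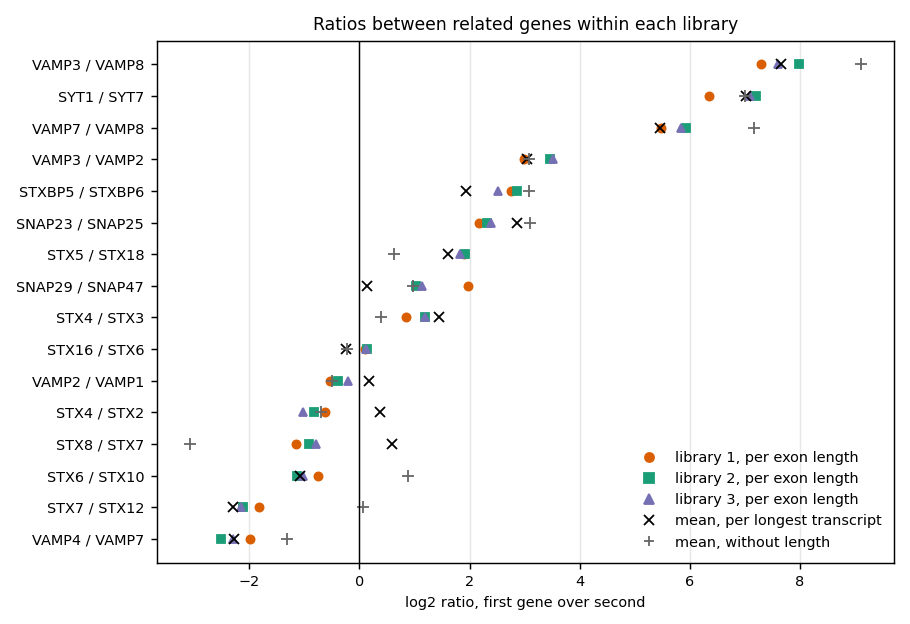
Log2 ratios within each library between related genes for 16 pairs in which both genes had more than a few counts, per union of exons (coloured), with the mean per longest transcript (cross) and without length (plus sign). The libraries lie farthest apart for SNAP29 over SNAP47 (1.98, 1.03 and 1.13), and the choice of length moves STX8 over STX7 from -0.95 to 0.60.

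The libraries differed in many of these genes by more than counting noise, at the rate of other genes. A chi-square test of each gene's 3 counts against the scaled library sizes, adjusted over all genes tested (Benjamini-Hochberg), called 28 of the 40 genes tested here and 68.6% of all genes tested. Among detected genes it called 26 of 35, beside 77.5% of detected protein-coding genes. The sizes were modest, the highest CPM being a median of 1.18 times the lowest over the 35 genes and 1.19 over detected protein-coding genes. A called ratio of at least 1.5 was seen for 5 genes, VAMP1, SNAP47, SYT14, VAMP4 and STX3, beside 8.78% of detected protein-coding genes. VAMP1 stood at 30.6, 22.2 and 19.0 CPM (ratio 1.61, adjusted p = 2.27e-31 in the chi-square test). SNAP47 was lowest in library 1, at 22.8 CPM, and stood at 35.8 and 34.6 CPM in the others (ratio 1.57, adjusted p = 7.05e-36). STX3 was highest in library 1 with 48.3 CPM against 33.9 and 32.0 (adjusted p = 9.36e-45), and VAMP4 lowest in library 2 with 11.5 CPM against 17.5 and 16.1 (adjusted p = 6.81e-16). SYT11, STX12 and SNAP23 varied little, with coefficients of variation of 1.58%, 2.47% and 2.72%, and did not pass the test (adjusted p = 0.318, 0.118 and 0.146).

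Called genes differed in direction. Of the 35 detected genes, 13 were called with library 1 the highest and 10 with library 1 the lowest, beside 29.2% and 39.6% of all detected protein-coding genes. For library 2 these numbers were 5 and 11 of the 35 (28.0% and 23.1% of all detected protein-coding genes), and for library 3 they were 8 and 5 of the 35 (20.3% and 14.7%). With library 1 highest, the called genes were VAMP1, VAMP2, VAMP4, STX1A, STX3, STX4, STX6, STX7, STX16, SNAP29, STXBP5, SYT14 and SYT16. With library 1 lowest, they were VAMP3, VAMP5, STX2, STX5, STX10, STX17, STX18, SNAP47, SV2A and SYT1. Syntaxins of the plasma membrane and of inner membranes were found on both sides. The median deviation of the 35 genes from their mean was 0.01, -0.04 and 0.00 on the log2 scale in libraries 1, 2 and 3. Without library 1 the test called 13 genes, 12 of them among the 35 detected, beside 35.4% of detected protein-coding genes. SNAP47 (ratio 1.04), VAMP5 (1.00) and STX3 (1.06) were then no longer called. VAMP4 lost its call without library 2 (ratio 1.09, adjusted p = 0.151). Of the genes below detection SYT7 (adjusted p = 0.0430) and SYT12 (5.28e-05) were called. SYT7 lost its call without library 1 or 2 (0.812 and 0.0921), and SYT12 without library 2 (0.776). The share of mitochondrial counts moved with library 1, and its part in these differences was not tested.

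**Figure D4:**
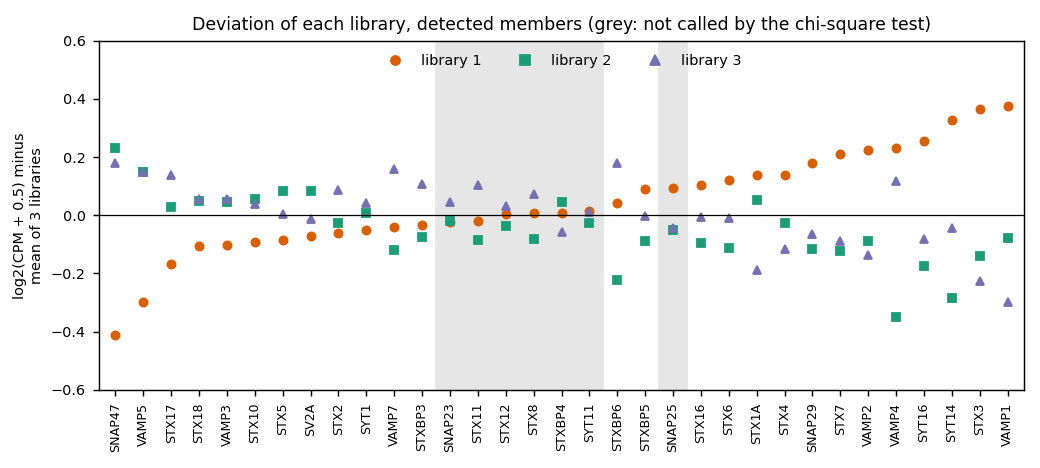
Deviation of log2(CPM + 0.5) in each library from the mean of the 3 libraries for 33 of the detected genes, sorted by library 1, with grey bands for genes not called by the chi-square test. SNAP47 and VAMP5 lie lowest in library 1 and STX3 and VAMP1 highest.

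Start sites were compared over the 47 genes with a RefSeq promoter window, 300 bases from 250 before to 50 after the start, taking the window richest in CpG where a gene had several. Among those without one were CPLX1, SNAP25, STX17, STXBP4, SYT12, SYT13, SYT17, SYT7 and SYT8. The 30 detected genes had a median of 29.5 CpG per window, beside 29 over detected protein-coding genes. The 17 genes below detection had a median of 31, beside 9 over protein-coding genes below detection. At least 20 CpG were found in 27 of the 30 (80.4% of detected protein-coding genes) and in 12 of the 17 (33.4% of those below detection). Among the 12 were SYT2, SYT3, SYT5, SYT6, SYT9, SYT10, SYT15, SV2B, SV2C, CPLX3, STXBP2 and SNAP91, while VAMP8, STX19, SYT4, CPLX2 and CPLX4 had between 3 and 11. The limit of 20 was chosen after the values were seen. With the poorest window of each gene, at least 20 CpG were found in 23 of 30 and 9 of 17. The window of SV2A, with 3 CpG, lies 10850 bases from the nearest annotated start, so it does not describe the outer start site. These are descriptions of a small set of related genes and were not tested.

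**Figure D5:**
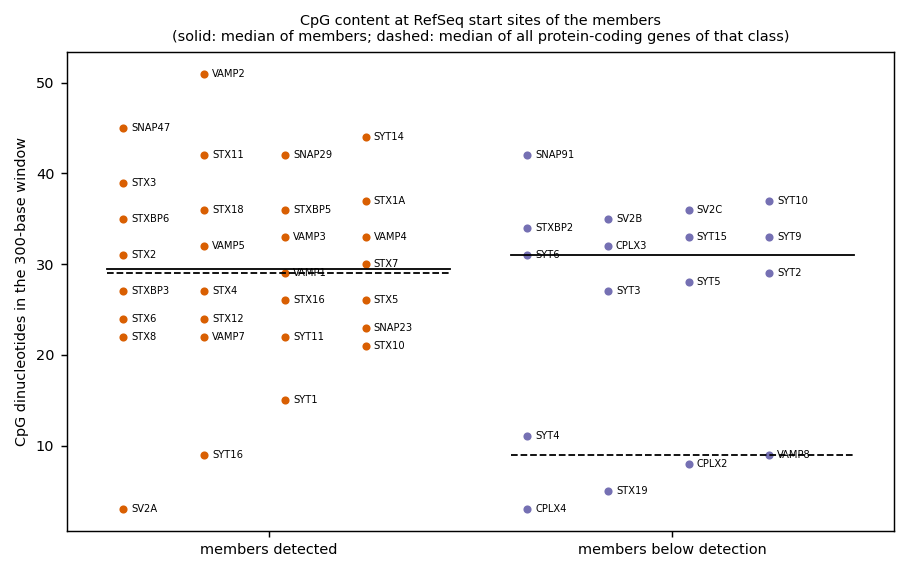
CpG dinucleotides in the richest 300-base RefSeq window of each of the 47 genes, split by detection, with the median of these genes (solid line) and of all protein-coding genes of the same class (dashed line). The medians are 29.5 and 29 on the left, and 31 and 9 on the right.

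Short motifs were searched on both strands of all RefSeq windows of these genes, not only the richest. A gene counted if any of its windows held the motif. Shares of the classes count genes in the same way, whereas shares of all windows count single windows. None of the motifs contains another. GGGCGG, the GC box, was found for 24 of the 30 detected genes and 13 of the 17 below detection, beside 78.1% and 44.3% of protein-coding genes of these classes and 45.03% of all windows. CCGGAAG, an ETS motif, was found for STX10, STX12, VAMP3, STXBP2 and SYT5, that is 3 of 30 and 2 of 17, beside 23.2% and 5.83% of the classes and 10.3% of all windows. GCATGCGC, part of the NRF1 motif, was found for STX1A, STX2, STX4, STX7 and SNAP47, 5 of 30 and 0 of 17, beside 6.69% and 2.13% of the classes and 3.06% of all windows. CACGTG, the E-box, was found for 6 of 30 and 3 of 17, beside 12.7% and 8.19% of the classes and 7.27% of all windows. TATAAA was found for SYT16 and SV2B, 1 of 30 and 1 of 17, beside 7.98% and 19.1% of the classes and 11.5% of all windows. TTCAGCACC, part of the motif of REST, a repressor of neuronal genes, was found in none of these genes and in 0.378% of all windows, which says only that these letters are not in the windows searched.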

How the data were processed

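RNA was measured in 3 libraries of 1 group. The authors deposited whole-number counts of reads per gene, not normalised. Build hg38 and the tools STAR 2.5.2a, featureCounts 1.6.2 and cutadapt 1.16 are listed in the submitters' processing notes, with no role or option. How strand, multiple alignments and overlapping genes were handled, and which annotation was counted, is not given in the sources used here. A further 6 count columns match none of the labels and were left out.

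All 58735 gene identifiers matched GENCODE release 29, which gave positions, exon lengths and overlaps. Counts were scaled with TMM in edgeR 4.0.16 (R 4.3.3; factors 0.985, 1.01 and 1.00). No contrast between groups exists, so edgeR's quasi-likelihood test was not run. The chi-square test (2 degrees of freedom, threshold 0.05) covered 16293 genes (mean count of 10 or more). It was tried on simulated counts that held counting noise and planted changes only. That trial does not show how the test behaves with the wider spread of these libraries. Pair ratios used a pseudocount of 0.5 count. Reads are not independent molecules, so intervals and floors cover counting error only. Near-identical copies and overlapping genes can divide reads. Promoter windows came from RefSeq (GRCh38.p14). Any of the 58 genes could be named, but the values of 2 are not reported here; counts and medians include them. Of the wider list, the 3 highest, the lowest detected, the called gene with the widest ratio (TSNARE1, 1.82) and those below detection were named, and its subgroups were formed afterwards. Members and lists were chosen with earlier results of these data known, and the motifs, the CpG limit and the printed promoters after the values were seen. Alternatives were other scalings (DESeq2 1.42.0 size factors, raw totals), filters, lengths, pseudocounts, detection rules and leaving out each library.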

Additional observations from a re-analysis of the deposited data

How the results depend on the processing

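No paired analysis was possible because the libraries form 1 group. Detection ranged from 35 to 36 genes when each library was left out, and was 38 with 0.5 CPM and 29 with 1 RPKM as the limit. The median of 6.68 RPKM became 11.9 with the longest transcript and 36.8 CPM without length, a change of scale. The count of 28 genes with a spread beyond counting noise ranged from 13 to 24 with a library left out, the lowest without library 1, and was 12 with an extra coefficient of variation of 0.05. Over all genes the count of 11182 ranged from 4581 to 10016, and was 5307 with that extra variation. The common coefficient of variation beyond counting noise, estimated with edgeR, was 0.135 over all libraries and 0.0602 without library 1. The extra 0.05 lies below both, so these counts still rest on a spread narrower than that of the libraries. Raw totals and DESeq2 size factors left both counts within 1.5 times. The order of 22 pairs became 22 to 23 with a library left out. Log2 ratios reversed with the longest transcript for VAMP2 over VAMP1 (0.18), STX4 over STX2 (0.38), STX16 over STX6 (-0.24) and STX8 over STX7 (0.60), and without length for STX7 over STX12 (0.069), STX6 over STX10 (0.88) and STX16 over STX6 (-0.22), by the construction of the lengths. SYT7, called at an adjusted p of 0.0430 in the chi-square test, was not called with raw totals (0.0576) or with no filter (0.0592). The windows within 500 bases of an annotated start, a choice made after seeing the data, left 12 and 27 genes with at least 20 CpG.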
